A study of Rattus norvegicus with 6 samples.

Results

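The transcription factor Atf4 and 9 genes that depend on it or sit beside it in the integrated stress response were followed in neonatal rat ventricular cardiomyocytes with and without isoproterenol. The members were fixed by gene name (Atf4, Asns, Psat1, Phgdh, Shmt2, Mthfd2, Trib3, Ddit3, Sesn2 and Ppp1r15a), and each row of the deposited mRNA table whose RefSeq transcript belongs to 1 of them was taken. All 10 genes were present, on 11 rows, of 20032 genes or unnamed transcripts on 20734 rows in all. Ddit3 alone had a pair of rows.

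Atf4 is a basic leucine zipper factor whose mRNA is translated better when the initiation factor eIF2 is phosphorylated, as happens in amino acid shortage, in endoplasmic reticulum stress and in mitochondrial stress. It then drives genes that make serine, glycine and asparagine, charge tRNAs and import amino acids. Several of its targets limit the response: Trib3 binds and restrains Atf4, and Ppp1r15a (Gadd34) directs a phosphatase to eIF2. Because Atf4 is controlled largely at translation, its mRNA level need not follow its activity.

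The cells came from ventricles of 1 to 3 day old Sprague-Dawley rats, had been depleted of fibroblasts by a step of differential attachment, and were held in medium without serum before treatment. The control group (3 samples) received nothing, and the isoproterenol group (3 samples) received 10 µM of this beta-adrenergic receptor agonist for 24 h. The labels mention several passages and the series text transfection, neither of which matches primary cells given a drug. The replicates are described as biological, but nothing in the labels says which litter or culture gave a replicate, and p-values therefore reflect the scatter among these 6 samples, which may be technical.

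Each sample was read on 1 one-colour array. The headers give 2 scan times and repeat array positions, which places the 3 controls and isoproterenol replicate 1 on slide 1 and isoproterenol replicates 2 and 3 on slide 2. Between 97.8% and 99.9% of the mRNA probes used were well above background on the slide 1 arrays, against 61.4% and 71.0% on slide 2. Levels are log2 of the processed signal minus the 75th percentile of the same array, so they compare arrays for 1 gene and not genes with each other. Over all 19912 genes tested the median change was 0.07, but it depended on brightness: in 10 classes of equal size it was 0.50 in the brightest and −0.21 in class 3 counted from the dimmest.

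The promoter windows of the members, 250 bases before to 50 after the start that the RefSeq table of assembly GRCr8 gives, were searched on both strands for motifs of this response. The start in that table lay 555 bases from the outer edge of the gene for Asns, 779 for Psat1 and 13 for Shmt2, and at the edge for the other members. The C/EBP-ATF response element, through which Atf4 acts, was searched as TGATGNAA and was found in 1 of the 10 windows, that of Trib3, and in 3.98% of all 33469 windows. The cAMP response element TGACGTCA was found in the window of Ppp1r15a and in 1.83% of all windows. Its half-site TGACG, which a full element contains, was found for Atf4, Trib3 and Ppp1r15a and in 21.2% of all windows. The CCAAT box was found for 5 members (37.5% of all windows), and the longer endoplasmic reticulum stress element, which holds a CCAAT box, for 0 members (0.0657% of all windows). These matches describe the letters only.

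The 120 bases before the start are shown for the member with the C/EBP-ATF response element and the member with the cAMP element. They are also shown for the member with the largest number of CCAAT boxes and the member with the opposite change. Motif matches are in capitals, each sequence is read 5′ to 3′ on the strand of the gene, and coordinates are of GRCr8. They lie at chr3:161275534-161275653 on the minus strand, chr1:105139597-105139716 on the minus strand, chr4:117380351-117380470 on the minus strand and chr7:65001575-65001694 on the plus strand.
Trib3: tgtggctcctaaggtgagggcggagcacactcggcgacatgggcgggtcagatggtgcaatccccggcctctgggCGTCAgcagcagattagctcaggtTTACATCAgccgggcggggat
Ppp1r15a: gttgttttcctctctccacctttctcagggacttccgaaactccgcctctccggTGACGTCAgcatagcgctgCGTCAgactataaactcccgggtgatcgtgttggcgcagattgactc
Mthfd2: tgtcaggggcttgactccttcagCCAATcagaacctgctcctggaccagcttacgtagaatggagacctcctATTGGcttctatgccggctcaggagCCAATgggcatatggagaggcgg
Ddit3: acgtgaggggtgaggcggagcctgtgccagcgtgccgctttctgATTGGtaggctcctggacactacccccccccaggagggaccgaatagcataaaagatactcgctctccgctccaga
In Trib3 the capitals mark a half-site 45 bases and the C/EBP-ATF element 21 bases before the start. In Ppp1r15a they mark the full cAMP element 66 bases before the start and a further half-site at 47. In Mthfd2 they mark CCAAT boxes at 97, 48 and 23, and in Ddit3 a single box at 76.

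With isoproterenol 5 members rose, Atf4, Psat1, Shmt2, Mthfd2 and Ppp1r15a, 1 fell, Ddit3, and 4 did not pass the test, Asns, Phgdh, Trib3 and Sesn2. The test was limma's moderated test, two-sided, with Benjamini-Hochberg adjustment over all genes and a threshold of 0.05, and by it 10.2% of all genes rose and 5.96% fell. The median change over the 10 members was 1.27 on the log2 scale, beside 0.07 over all genes. All 5 that rose lay in class 9 or 10 of brightness, counted from the dimmest. In these classes the median change was 0.32 and 0.50, and 18.5% and 16.8% of genes rose. The groups did not overlap in 8 members (41.4% of all genes): in 7 every isoproterenol array lay above every control array (25.6% of all genes), in Ddit3 every one lay below (15.8% of all genes), and Phgdh and Sesn2 overlapped. With the authors' deposited values 4 members rose (8.15% of all genes) and Ddit3 fell (6.53%), and Atf4 no longer passed. With slide as a block in the fit 0 members rose (3.7% of all genes) and Ddit3 fell (3.64% of all genes). Within slide 1, where isoproterenol replicate 1 stood alone against 3 controls, 0 passed in either direction (2.57% and 2.78% of all genes rose and fell), with 9 changes above 0 and Ddit3 below. Isoproterenol replicate 1 lay above the control mean in 58.9% of all genes. The fit within slide 1 assumes the lone sample to vary like the controls. Slide 2 holds only isoproterenol arrays, so the change with slide as a block also rests on isoproterenol replicate 1 against the 3 controls. The block fit and the fit within slide 1 are therefore not separate checks. Without control replicate 2, control replicate 3 or isoproterenol replicate 3, 0 members passed in either direction; of all genes 1.4%, 1.05% and 2.29% then rose and 1.13%, 0.819% and 1.93% fell, so that 0 of 10 lies near these shares. Without isoproterenol replicate 2 Psat1 rose and Ddit3 fell, with 3.62% and 2.98% of all genes. Without control replicate 1 Trib3 joined the 5 that rose and Ddit3 did not pass, where 4.28% of all genes rose and 2.95% fell. Without isoproterenol replicate 1, which leaves the groups on different slides, 7 members rose and Ddit3 fell, but so did 29.5% and 22.8% of all genes.

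**Figure D1:**
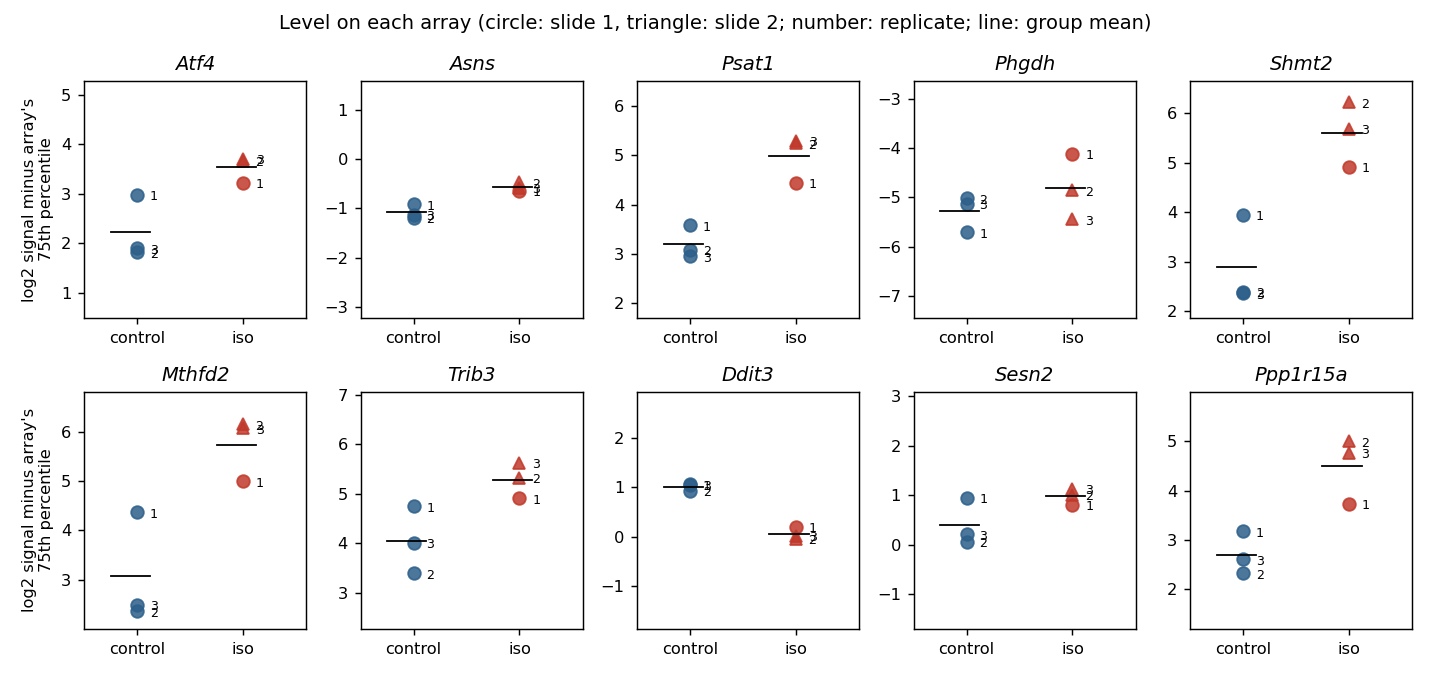
Level of each of the 10 genes on each array, as log2 signal minus the 75th percentile of that array (y axis, the same span in every panel), by group (x axis; iso is isoproterenol); circles are slide 1, triangles slide 2, numbers replicates and lines group means. In 7 genes all isoproterenol points lie above all control points, Ddit3 is the reverse, and control replicate 1 is the highest control in 8 genes.

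Atf4 itself stood at levels of 2.97, 1.81 and 1.90 in control replicates 1 to 3 and at 3.23, 3.67 and 3.70 in isoproterenol replicates 1 to 3. The groups did not overlap, but control replicate 1 lay closer to isoproterenol replicate 1 than to the other controls. The log2 change was 1.31 ± 0.34 (SE, n = 3 per group), 2.47-fold, with adjusted p = 0.0452. This call was lost under normexp background correction (adjusted p = 0.0509), quantile normalization (0.0972), scaling to the probes detected on every array (0.0756) and in the authors' deposited values (0.0904), and within slide 1 the change was 0.997 (adjusted p = 0.269).

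In serine synthesis, Phgdh makes the first step from the glycolytic intermediate 3-phosphoglycerate, Psat1 transfers the amino group, and the phosphatase Psph releases serine. Phgdh was at the edge of detection, with processed signals of 10.5, 18 and 15.7 scanner units in the controls and 34.6, 7.16 and 5.73 with isoproterenol, and was well above background on control replicates 2 and 3 and isoproterenol replicate 1 only. Its log2 change was 0.48 ± 0.37 (adjusted p = 0.369), and its direction was not settled, at −0.85 under quantile normalization and −0.50 in the authors' deposited values. Psat1 stood at 3.58, 3.08 and 2.96 in the controls and at 4.44, 5.25 and 5.30 with isoproterenol. The arrays of the groups were well separated, and the change was 1.78 ± 0.30 (3.45-fold, adjusted p = 0.0127). It was 1.23 within slide 1 (adjusted p = 0.0794), and with slide as a block its adjusted p was 0.0565. Psph, which is no member, rose by 1.75 ± 0.32 (adjusted p = 0.0166), from 1.32, 0.25 and 0.26 to 2.60, 2.16 and 2.31, with 1.99 within slide 1 (adjusted p = 0.0863).

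The mitochondrial one-carbon enzymes had the largest changes of the 10 members in the fit of all 6 arrays. Shmt2, which splits serine into glycine and a folate-bound carbon in mitochondria, stood at 3.95, 2.39 and 2.36 in the controls and at 4.92, 6.22 and 5.69 with isoproterenol. All treated arrays were above all controls, and control replicate 1 lay between. The change was 2.71 ± 0.52 (6.55-fold, adjusted p = 0.018), and 2.02 within slide 1 (adjusted p = 0.155). Mthfd2, which oxidises the folate-bound carbon in the next step, stood at 4.37, 2.37 and 2.50 in the controls and at 5.0, 6.14 and 6.07 with isoproterenol. The order of the arrays was nearly that of Shmt2. Its change was 2.66 ± 0.59 (6.32-fold, adjusted p = 0.0276), with 1.92 within slide 1 (adjusted p = 0.225), 2.32 under quantile normalization (adjusted p = 0.0555) and 3.30 without control replicate 1. Both genes lie in the brightest of the 10 classes, whose median change was 0.50.

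Asns, which makes asparagine from aspartate with glutamine as the donor, had levels of −0.91, −1.19 and −1.13 in the controls and of −0.64, −0.47 and −0.58 with isoproterenol. The groups did not overlap, yet the difference of 0.51 ± 0.17 (1.43-fold) did not pass (adjusted p = 0.0771). It passed, at the same size, when only genes detected on all 6 arrays were tested (adjusted p = 0.0363). In that test 3082 genes rose, beside 2038 with no such filter. It also passed without isoproterenol replicate 1 (0.0212), where 29.5% of all genes rose and the groups lie on different slides. It was 0.27 with scaling to the probes detected on every array (adjusted p = 0.239) and 0.43 within slide 1 (0.195), and its adjusted p was 0.245 without control replicate 2 or 3.

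Of the genes that feed back on the response, Ppp1r15a stood at 3.17, 2.32 and 2.61 in the controls and at 3.73, 5.0 and 4.77 with isoproterenol. The slide 2 arrays were the highest, and the change of 1.80 ± 0.38 (3.47-fold, adjusted p = 0.025) was 1.03 within slide 1 (adjusted p = 0.152). Trib3, a pseudokinase that also binds Akt, stood at 4.74, 3.39 and 4.01 in the controls and at 4.91, 5.32 and 5.62 with isoproterenol. Its lowest treated array was 0.17 above control replicate 1, and the change of 1.24 ± 0.37 did not pass (adjusted p = 0.0618) but did without that control (1.59, adjusted p = 0.0434). Under quantile normalization it was 0.87 (adjusted p = 0.161).

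Ddit3 (Chop), a bZIP factor that promotes death in prolonged stress, went the other way. On the row used its levels were 1.05, 0.93 and 1.06 in the controls and 0.20, −0.05 and 0.02 with isoproterenol, and on its other row 1.04, 0.79 and 0.89 against −0.09, −0.15 and 0.01. The arrays within each group lay close together on both probes, with no overlap. The changes were −0.96 ± 0.16 (adjusted p = 0.0133) and, in a fit over all probes, −0.98 ± 0.16 (adjusted p = 0.0129). Ddit3 passed with slide as a block (adjusted p = 0.0395), where its change was the same −0.81 as within slide 1. Without control replicate 1 it was at −0.94 (adjusted p = 0.0517).

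Sesn2, a sestrin that senses leucine and restrains mTORC1, stood at 0.95, 0.06 and 0.21 in the controls and at 0.81, 1.01 and 1.12 with isoproterenol. Control replicate 1 was above isoproterenol replicate 1, and the change of 0.58 ± 0.27 did not pass (adjusted p = 0.167).

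**Figure D2:**
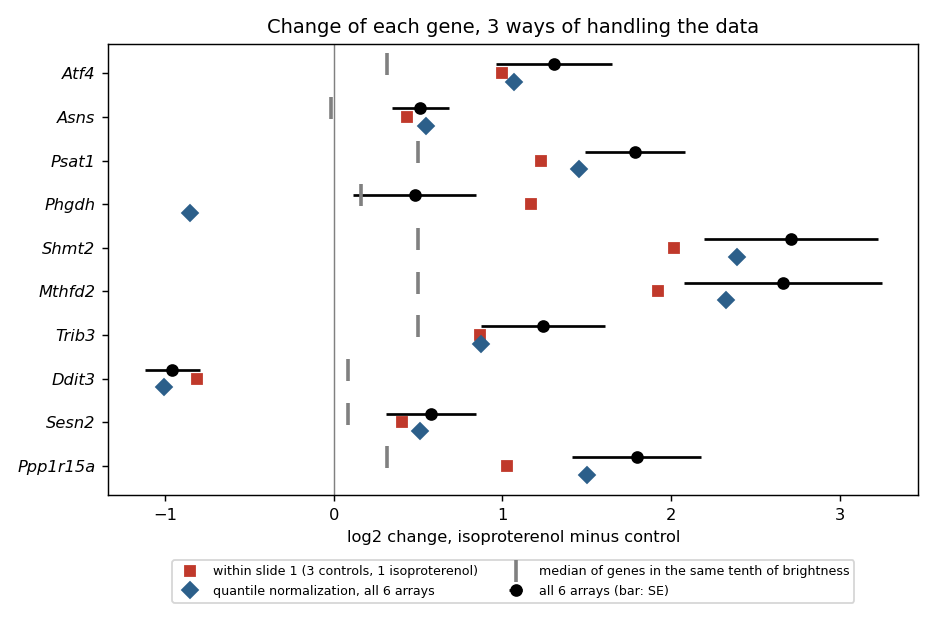
Log2 change (x axis, isoproterenol minus control) of each gene (y axis) from all 6 arrays with its SE (black circles), within slide 1 (red squares) and after quantile normalization (blue diamonds); grey marks give the median change of genes of like brightness. Shmt2 and Mthfd2 lead at 2.71 and 2.66, Ddit3 is below 0 in all 3, and Phgdh changes sign, from 0.48 to −0.85.

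Arrays of 1 group differed in these genes. In 8 of 10 members control replicate 1 was the highest control, as in 41.1% of all genes. Its excess over the mean of the other controls was 1.94 for Mthfd2, 1.58 for Shmt2, 1.12 for Atf4 and 1.05 for Trib3, against a median of 0.01 over all genes, and 0.05 for Ddit3. Isoproterenol replicate 1 was above control replicate 1 in 8 members (57.0% of all genes). The difference was 0.97 for Shmt2, 0.86 for Psat1, 0.63 for Mthfd2 and 0.25 for Atf4. It was 1.59 for Phgdh, which was at the edge of detection, and below 0 for Ddit3 (−0.85) and Sesn2 (−0.14). The mean of isoproterenol replicates 2 and 3, on slide 2, was then compared with replicate 1. The difference was 1.15 for Ppp1r15a, 1.11 for Mthfd2, 1.04 for Shmt2 and 0.83 for Psat1, where the median over all genes was 0.10. Phgdh was at −1.03 and Ddit3 at −0.21. Slide and culture cannot be told apart in that last comparison.

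**Figure D3:**
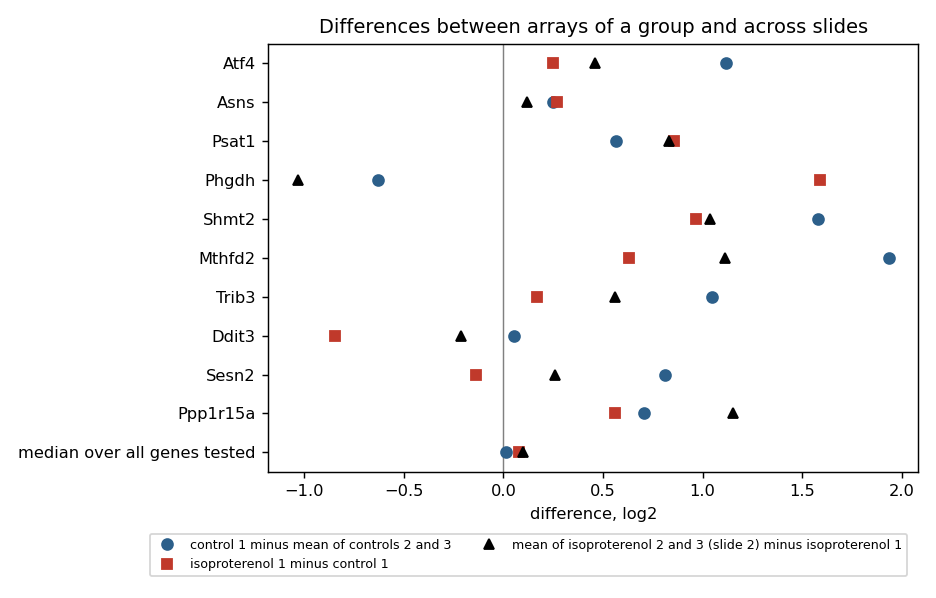
Differences in log2 level (x axis) for each gene (y axis): control 1 minus the mean of controls 2 and 3 (circles), isoproterenol 1 minus control 1 (squares, both on slide 1) and the mean of isoproterenol 2 and 3 minus isoproterenol 1 (triangles, across slides). For Mthfd2 the excess of control 1, 1.94, is larger than the step from control 1 to isoproterenol 1, 0.63, whereas for Ddit3 the first is 0.05 and the second −0.85.

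The rest of the pathway was read from 9 lists, some of which share genes. Their counts stand beside the shares of all genes given above, 10.2% that rose and 5.96% that fell in the fit of all 6 arrays, 2.57% and 2.78% within slide 1, and 4.28% and 2.95% without control replicate 1. Of 32 other Atf4 and amino acid response targets 16 rose, 0 fell and 16 did not pass, with a median of 1.02 and 28 above 0. Slc7a3, a transporter of cationic amino acids, rose by 3.72 ± 0.43 (adjusted p = 0.00522), Atf3, a bZIP factor of the stress response, by 3.29 ± 0.52 (0.0111), and Slc7a11, which imports cystine, by 2.61 ± 0.25 (0.00341). Slc7a11 stood at 0.13, 0.18 and 0.06 in the controls, so that control replicate 1 was not apart, and at 2.22, 2.82 and 3.14 with isoproterenol. Within slide 1 the list's median was 0.69, 29 of 32 were above 0 and 5 rose, among them Slc7a3 (2.94, adjusted p = 0.0447) and Slc7a11 (2.10, 0.025), the others being Gpt2, Stc2 and Pck2. Of all genes 58.9% were above 0 within slide 1. Without control replicate 1 the list had 12 that rose. In control replicate 1 25 of the 32 were the highest of the controls, with a median excess of 0.37.

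Of 14 further genes of serine and glycine metabolism 4 rose and 0 fell (median 0.25). Besides Psph these included Sptlc2, which uses serine for sphingolipids, at 1.23 ± 0.18 (adjusted p = 0.00943), and Sfxn1, a mitochondrial serine carrier, at 1.41 ± 0.29 (0.0224; 0.79 within slide 1), and the other was Gcsh, of the glycine cleavage system. Within slide 1 the list's median was 0.09 and 1 gene, Sptlc2 (1.03, adjusted p = 0.0462), rose, and without control replicate 1 it had 2, Sptlc2 and Psph. Of 24 genes of folate metabolism and nucleotide synthesis 8 rose and 0 fell (median 0.46). Mthfd1l, the mitochondrial synthetase that completes the path to formate, rose by 1.93 ± 0.32 (adjusted p = 0.0128), Mthfd2l, a relative of Mthfd2, by 1.50 ± 0.24 (0.0119), the cytosolic enzyme Mthfd1 by 1.20 ± 0.26 (0.0258), and Umps, which makes UMP with no folate step, by 1.59 ± 0.32 (0.0209). Within slide 1 the median was 0.15 and 0 passed, with Mthfd1l at 2.07 (adjusted p = 0.0857), Mthfd2l at 1.08 (0.0528), Mthfd1 at 0.67 (0.0843) and Umps at 0.90 (0.0722), and 3 rose without control replicate 1 (Gart, Mthfd1l and Mthfd2l). Values for Shmt1, the cytosolic relative of Shmt2, as for Sesn1 and the eIF2 kinase Eif2ak1, were not analysed here. Of 16 genes of aspartate, asparagine and glutamine metabolism 2 rose, Cad, which starts pyrimidine synthesis, at 1.25 ± 0.19 (adjusted p = 0.01), and Adss2, of adenylate synthesis, at 1.36 ± 0.28 (0.0221; 0.77 within slide 1), a share near that of all genes. The 3 that fell were Glul, glutamine synthetase, at −1.22 ± 0.16 (adjusted p = 0.00763), Nit2, an omega-amidase, at −0.70 ± 0.16 (0.0288), and Got2, the mitochondrial aspartate aminotransferase, at −0.62 ± 0.15 (0.0376). That list's median was 0.09, and Gfpt1, of hexosamine synthesis, rose and Glul fell within slide 1 (1 gene each). Without control replicate 1 Cad rose and Glul fell.

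**Figure D4:**
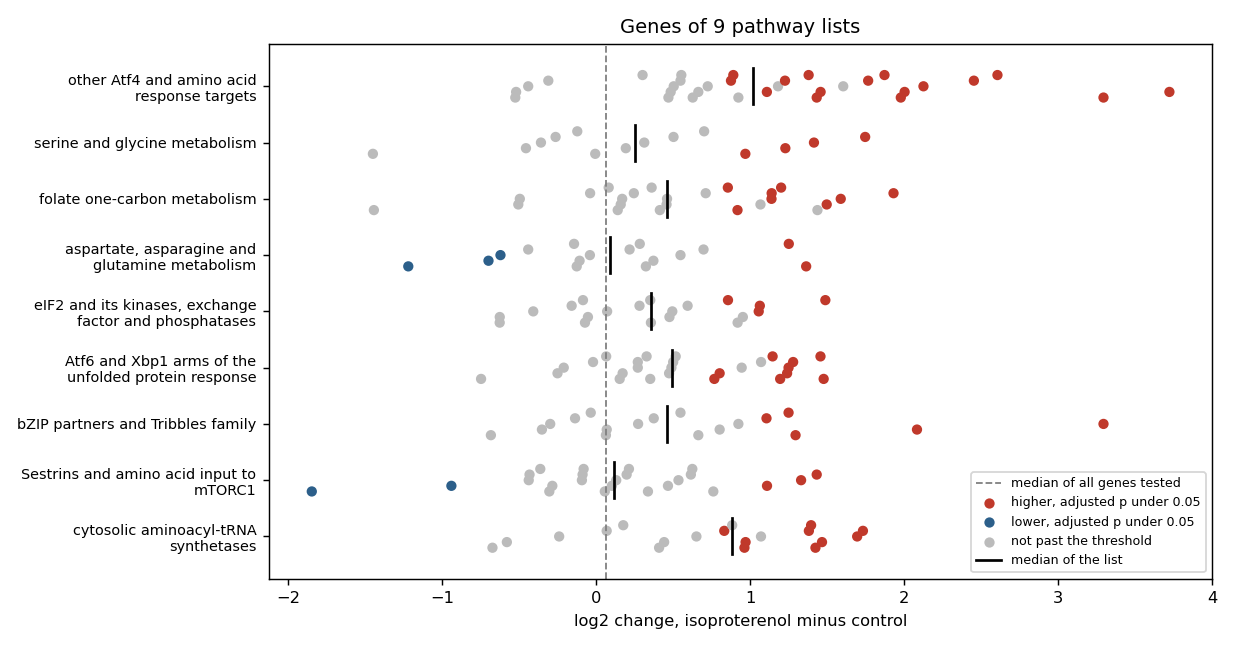
Log2 change (x axis) of every gene tested in 9 pathway lists (y axis), coloured by whether it rose, fell or did not pass; short black lines are list medians and the dashed line is the median of all genes, 0.07. The lists of other Atf4 targets and of aminoacyl-tRNA synthetases have the highest medians, 1.02 and 0.88.

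Upstream of Atf4, 4 of 20 genes for eIF2, its kinases, exchange factor and phosphatases rose and 0 fell (median 0.35). Those that led were Eif2s2, the beta subunit of eIF2, at 1.49 ± 0.36 (adjusted p = 0.037), Ppp1r15b, the constitutive relative of Ppp1r15a, at 1.06 ± 0.20 (0.018), and Eif2b3, a subunit of the exchange factor, at 1.06 ± 0.23 (0.0279), and the other was Eif2b2. Within slide 1 0 passed, with Eif2s2 at 0.72 (adjusted p = 0.196) and Eif2b3 at 0.62 (0.121), and without control replicate 1 only Ppp1r15b did. None of the 3 eIF2 kinases tested passed: Eif2ak2 (PKR) was at −0.07 ± 0.28 (adjusted p = 0.87), Eif2ak3 (PERK) at −0.05 ± 0.19 (0.862) and Eif2ak4 (GCN2) at −0.62 ± 0.23 (0.0989). The sign of the first and second turned under some alternatives, and Eif2ak4 was at −0.21 within slide 1 (adjusted p = 0.456) and at −0.83 without isoproterenol replicate 1, where it passed (0.00512). Of 19 cytosolic aminoacyl-tRNA synthetases 9 rose and 0 fell (median 0.88), led by Wars1 at 1.73 ± 0.35 (adjusted p = 0.0208), Gars1 at 1.70 ± 0.40 (0.0344) and Rars1 at 1.47 ± 0.36 (0.0367), which charge the tRNAs for tryptophan, glycine and arginine. Within slide 1 18 of 19 were above 0 and 0 passed, with Gars1 at 1.12 (adjusted p = 0.247) and Rars1 at 0.62 (0.0767), without control replicate 1 7 rose, and in that control 16 were the highest, with a median excess of 0.67.

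Of 26 genes of the Atf6 and Xbp1 arms, which answer misfolded protein, 9 rose and 0 fell (median 0.50). Creld2 rose by 1.48 ± 0.24 (adjusted p = 0.0125), the chaperone partner Dnajb11 by 1.46 ± 0.23 (0.0114) and Sec61b, of the translocation channel, by 1.28 ± 0.16 (0.00689). Within slide 1 the median was 0.50 and 2 rose, Sdf2l1 and Sec61b (1.16, adjusted p = 0.0396), and without control replicate 1 it had 5. This list was not high in control replicate 1, which was the highest control for 3 of 26 genes with a median difference of −0.08. Of 18 bZIP partners and Tribbles genes 5 rose and 0 fell (median 0.46), Atf3, Fos at 2.08 ± 0.26 (adjusted p = 0.00627), Jun at 1.30 ± 0.21 (0.0126), Atf6 and Jund, with 0 within slide 1 and 4, all but Jund, without control replicate 1. Atf5 was at 0.92 ± 0.34 (adjusted p = 0.104), and Cebpb and Cebpg, dimer partners of Atf4, at 0.55 ± 0.17 (0.0696) and 0.66 ± 0.27 (0.131). Trib1 was at −0.68 ± 0.27 (adjusted p = 0.124; 0.13 under normexp) and Trib2 at 0.80 ± 0.37 (0.169; −0.08 within slide 1). Of 24 genes of the sestrins and the amino acid input to mTORC1 3 rose and 2 fell (median 0.12), shares near those of all genes. Ddit4 (Redd1), an mTORC1 inhibitor, rose by 1.43 ± 0.24 (adjusted p = 0.013), Sec13, of the GATOR2 complex, by 1.33 ± 0.22 (0.0127) and Slc38a9, a lysosomal arginine sensor, by 1.11 ± 0.25 (0.0291; 0.69 within slide 1), while the Rag GTPase Rragd fell, at −1.84 ± 0.25 (0.00812), and Nprl2, of the GATOR1 complex, at −0.94 ± 0.20 (0.0242). In that list 1 rose and 1 fell within slide 1, which were Sec13 and Rragd, and without control replicate 1 Sec13 rose and Rragd and Nprl2 fell. Sesn3 was at −0.28 ± 0.26 (adjusted p = 0.461; 0.14 under normexp).

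The genes outside the members that lay nearest to the members' mean pattern over the 6 arrays, by Euclidean distance of centred log2 values, were Pex26 (0.165), Kank1 (0.193), Igf1r (0.207) and a pair of transcripts without a name. Pearson's r with that mean pattern was 0.996 for Pex26, 0.993 for Kank1 and 0.993 for Igf1r over 6 arrays. The arrays fall into the study's groups, so that r describes the group difference as well. These genes were picked for their closeness to that pattern, so a high r follows from the choice.

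Markers of the cells in the culture moved beside these results. All 13 cardiomyocyte markers with a row were well above background on some array, and their summed level, on a linear scale in units of each array's 75th percentile, was 2229 to 2937 in the controls and 2986 to 5036 with isoproterenol; Myh6 and Nppa rose and Atp2a2 fell. Their median change was 0.34 with 10 above 0, but −0.20 with 4 above 0 under quantile normalization, and within slide 1 0 rose and Pln and Mybpc3 fell. Of 10 fibroblast markers 4 fell, Col3a1, Lum, Postn and Tcf21, and Thy1 rose, where 5.96% and 10.2% of all genes did. The sums of the 10 were 153 to 161 in the controls and 128 to 169 with isoproterenol. The median change of these markers was −0.52 with 3 above 0, and −0.84 within slide 1, also with 3 above 0. Without control replicate 1 only Lum and Postn fell, and Thy1 rose (2.95% and 4.28% of all genes). Of 6 smooth muscle and pericyte markers Tagln and Acta2 rose and 0 fell, with sums of 83.5 to 149 and 217 to 498. Without control replicate 1 Acta2 and Cspg4 rose, and Tagln did not pass. The sums of 7 endothelial markers, 15.2 to 17.1 and 14.3 to 15.8, and of 7 macrophage and leukocyte markers, 14.4 to 23.7 and 16.9 to 21.9, overlapped between the groups, as did those of 3 red cell markers, 27.1 to 32.2 and 21.3 to 38.8. Those of 6 Schwann and neuronal markers were 3.53 to 3.89 and 4.10 to 6.01. In those last 4 lists Kdr (endothelial), S100b (Schwann) and Hbb (red cell) fell, and Cd14 (macrophage) and Tubb3 (neuronal) rose. With isoproterenol Kdr, S100b and Hbb were well above background on 1 array only, and Tubb3 on 2. Without control replicate 1 Kdr and S100b fell, and Hbb, Cd14 and Tubb3 did not pass. The part of cell composition in the changes of the members was not tested, and in these bulk samples fewer cells of a type cannot be told apart from less RNA per cell.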

How the data were processed

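The members and lists were chosen with earlier results of these data known. Per the file headers, the scanner output consists of linear Cy3 intensity values that Agilent Feature Extraction 11.0.1.1 had already corrected for background, for 43040 spots an array, of which 0 were saturated. The authors also deposited a table of log2 values for mRNAs, labelled as normalized. On slide 1 its rows lay close to quantile-normalized log2 intensities (95th percentile of the absolute difference up to 0.000608). On slide 2 that percentile was larger (0.455 and 0.235). The cause was not tested, and no source used here states the tool. The scanner files name these probes by design numbers only, so rows were matched to probes by their values on the slide 1 arrays (distance under 0.01 and under 0.1 of the next best). Of 20734 rows 20607 matched, and all 20606 neighbouring pairs, sorted by transcript, followed the order of the probe numbers. RefSeq's table of GRCr8 named 13956 of 14757 NM accessions and 0 of 5977 Ensembl ones.

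Log2 of the processed signal minus the 75th percentile over non-control probes of each array was fitted with limma 3.58.1 in R 4.3.3 over all mRNA genes, each by its brightest probe. Spots marked as outliers were left out, which touched 0 members. A filter for probes well above background on at least 3 arrays removed 0 rows. The script was tested on simulated data. All members are described; of each list the 3 highest and 3 lowest genes past the threshold and fixed relatives of members were named, beside others named after their values were seen (Atf6, Jund, markers and genes outside that rule in counts of 5 or fewer). The scanner files used have no mean signal, so normexp with an offset of 50 used the median signal. Alternatives were normexp, quantile, median and all-detected scaling, the deposited values, other filters, the mean over probes, slide as a block, slide 1 alone, the replicate number as a block, and each array left out; list counts without control replicate 1 and within slide 1 were added after seeing the data. With 6 arrays, their number limits the precision.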

Additional observations from a re-analysis of the deposited data

How the results depend on the processing

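The number of mRNA genes past the threshold, 3225, was 1461 with slide as a block and 1064 within slide 1, and ran from 373 to 10395 with 1 array left out, the highest without isoproterenol replicate 1, where group and slide coincide. The number of members that rose, 5, was 3 under quantile normalization, 4 with the authors' deposited values, 0 with slide as a block and within slide 1, and 0 to 7 with 1 array left out. The number that fell, 1, was 0 within slide 1 and 0 to 1 with 1 array left out. Under quantile normalization 1516 genes rose in all, beside 2038 in the main fit. When only genes detected on all 6 arrays were tested, 7 members rose, and 3082 genes did in all. The median over the members, 1.27, ran from 0.97 (quantile normalization and deposited values) to 1.63 (without control replicate 1). Samples with the same replicate number did not deviate together over all genes (correlations of 0.00939, 0.0541 and −0.0213 for replicates 1 to 3). Isoproterenol replicate 1 lay on another slide than replicates 2 and 3, so these values cannot show whether such samples share a culture. The replicate block gave 1502 genes past the threshold, 853 higher and 649 lower, with 1 member higher and 1 lower. The split of all calls into higher and lower, 2038 and 1187, was 1372 and 1977 with scaling to the probes detected on every array and 2118 and 750 under normexp, where the median over all genes was −0.17 and 0.37. Direction turned for Phgdh under quantile normalization (−0.85) and the deposited values (−0.50), and for Sesn3 (0.14), Trib1 (0.13), Eif2ak2 (0.17) and Eif2ak3 (0.19) under normexp. It also turned for Trib2 with slide as a block and within slide 1 (both −0.078), and for Eif2ak3 under quantile normalization (0.017), median scaling (0.015) and the deposited values (0.017). With 1 array left out Eif2ak2 ran from −0.22 to 0.22, the highest without isoproterenol replicate 1, and Eif2ak3 from −0.16 to 0.078, above 0 without control replicate 2 or isoproterenol replicate 1. Where calls were lost the cause was not tested. Fewer probes were well above background on slide 2 than on slide 1. Phgdh was at the edge of detection on both slides, so its change is uncertain.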
